A study of Homo sapiens with 6 samples.

Results

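The genes described here are the chromosome 11 neighbours of lncRNA-IUR1, 44 named genes of bands 11q13.4 to 11q13.5 that lie on both sides of the lncRNA. They were listed by position and name, and no value in these libraries entered that rule, though earlier results of these data were known. Of the 44 genes, 38 had FPKM values (fragments normalized for transcript length and library total) among the 12486 genes of the table, and PHOX2A, PDE2A, P2RY2, P2RY6, KLHL35 and MAP6 were not analysed here. In RefSeq (GRCh38.p14), lncRNA-IUR1 spans 27124 bases of the minus strand at chr11:73155780-73182903. The 44 genes run from NADSYN1, which starts at 71453203, to UVRAG, which ends at 76144232, a stretch of 4.69 Mb. RefSeq places 66 protein-coding genes in that stretch, so the 44 are not all of its genes. FCHSD2 is the nearest gene on the side of lower coordinates, with a gap of 13.5 kb between its span and that of the lncRNA, and P2RY2 is the nearest on the other side, with a gap of 35.4 kb. These sides are called the FCHSD2 side, with 14 of the 38 genes, and the P2RY2 side, with 24.

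Total RNA was sequenced from K562 cells, a human erythroleukemia line from chronic myeloid leukemia that carries the Bcr-Abl fusion. A lentiviral vector gave stable expression of an shRNA to luciferase as the control (sh-luc, 3 libraries) or of 1 shRNA to lncRNA-IUR1 (sh-IUR1, 3 libraries), which the sample labels call lncRNA-up91. With a single shRNA for the lncRNA, loss of its target and other effects of that shRNA cannot be told apart. The libraries of each group are called unnumbered, r1 and r2, after their labels. Values of the lncRNA itself were not analysed here, and its knockdown is therefore unchecked in these libraries.

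A lncRNA can act in cis, on genes near the place where it is transcribed, through the act of its transcription, through enhancer elements in its gene or through the RNA held at the locus. It can also act in trans, on genes elsewhere, once the RNA has left its site. An shRNA directs cleavage of the finished RNA and leaves the DNA of the locus in place, so the comparison asks whether neighbouring genes differ when the RNA is targeted. The genes around lncRNA-IUR1 are not a family: among them are a paralogous pair of mitochondrial carriers (UCP2 and UCP3), nucleotide receptors, regulators of small GTPases, and enzymes of lipid, folate and NAD metabolism.

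Promoter sequences are shown first for the lncRNA, for its nearest neighbour, and for genes whose values the results below turn on. Each is the RefSeq GRCh38.p14 window of 300 bases, from 250 bases before to 50 bases after the start site, read 5′ to 3′ on the strand of the gene. Capitals mark motif letters, which were searched on both strands, so that a match may appear as its reverse complement. The letters of the CCAAT box were CCAAT itself, those of the GC box were GGGCGG, those of a GATA motif were AGATAA and those of a STAT motif were TTCNNNGAA. The TATA box was searched as TATAAA, with no match in the windows shown. The lncRNA-IUR1 window lies at chr11:73182854-73183153 (minus strand), FCHSD2 at chr11:73142269-73142568 (minus), STARD10 at chr11:72793998-72794297 (minus), SPCS2 at chr11:74949016-74949315 (plus) and COA4 at chr11:73876797-73877096 (minus).
lncRNA-IUR1: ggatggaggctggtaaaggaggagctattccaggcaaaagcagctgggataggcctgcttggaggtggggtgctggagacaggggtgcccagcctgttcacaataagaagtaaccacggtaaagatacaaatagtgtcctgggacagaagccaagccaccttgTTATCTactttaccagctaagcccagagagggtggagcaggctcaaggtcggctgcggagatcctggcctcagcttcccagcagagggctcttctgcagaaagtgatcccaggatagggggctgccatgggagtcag
FCHSD2: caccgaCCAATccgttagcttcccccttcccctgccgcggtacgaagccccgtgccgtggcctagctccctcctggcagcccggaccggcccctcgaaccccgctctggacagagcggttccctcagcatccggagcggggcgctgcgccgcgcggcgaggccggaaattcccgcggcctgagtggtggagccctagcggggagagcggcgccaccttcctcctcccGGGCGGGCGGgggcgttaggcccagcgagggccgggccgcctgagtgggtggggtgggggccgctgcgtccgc
STARD10: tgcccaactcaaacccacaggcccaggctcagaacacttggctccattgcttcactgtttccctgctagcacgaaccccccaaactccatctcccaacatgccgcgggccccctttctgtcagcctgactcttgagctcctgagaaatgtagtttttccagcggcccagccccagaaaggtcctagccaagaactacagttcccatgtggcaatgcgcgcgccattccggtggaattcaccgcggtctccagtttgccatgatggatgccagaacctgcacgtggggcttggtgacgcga
SPCS2: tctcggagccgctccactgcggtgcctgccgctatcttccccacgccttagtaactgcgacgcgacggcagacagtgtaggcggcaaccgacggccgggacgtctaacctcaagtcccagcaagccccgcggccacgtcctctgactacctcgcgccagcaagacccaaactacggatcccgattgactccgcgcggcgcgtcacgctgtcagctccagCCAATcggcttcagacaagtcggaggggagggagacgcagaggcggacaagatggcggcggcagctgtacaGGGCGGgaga
COA4: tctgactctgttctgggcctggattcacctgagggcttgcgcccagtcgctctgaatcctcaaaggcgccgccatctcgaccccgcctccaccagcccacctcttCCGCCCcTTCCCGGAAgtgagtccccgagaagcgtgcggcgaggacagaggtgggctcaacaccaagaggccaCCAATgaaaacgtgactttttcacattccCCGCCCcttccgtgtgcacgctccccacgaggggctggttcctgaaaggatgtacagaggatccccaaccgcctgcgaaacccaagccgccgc

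The lncRNA-IUR1 window holds 1 match, to the GATA letters, and 3 CpG dinucleotides in a sequence of 56% GC. The FCHSD2 window differs from it in composition, with 36 CpG dinucleotides, 75.3% GC, a CCAAT match and a pair of GC matches that overlap. The STARD10 window holds none of the letters searched and 13 CpG dinucleotides, and the SPCS2 window holds a CCAAT match, a GC match and 34 CpG dinucleotides. The COA4 window is the only 1 of the 5 with the STAT letters, and these do not overlap its GC matches. RefSeq windows were found for 36 of the 44 genes, 54 windows in all, and not for FOLR1, P2RY2, P2RY6, ARHGEF17, ARRB1, MAP6, DGAT2 and UVRAG. The CCAAT letters were present in 42.6% of the 54 windows, against 34.6% of the 35114 windows of all genes. For the GC letters the shares were 61.1% and 44.95%, for the GATA letters 7.41% and 10.3%, for the STAT letters 11.1% and 7.66%, and for the TATA letters 0% and 11.5%. A match is a run of letters, not a measured binding site.

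Differences between the groups were tested with limma on log2(FPKM + 1), with Benjamini-Hochberg adjustment over the 12276 genes whose mean reached 0.1 FPKM, which included all 38 neighbours with values. A log2 change below is the mean of this quantity in sh-IUR1 minus that in sh-luc, and it understates the change of genes with low FPKM. Summed over the table, FPKM came to between 579820 and 606240 per library, which is not a sequencing depth, and the depth is unknown. All 11 K562 markers examined had values, between 17.17 and 3564.84 FPKM, among them the globins HBG1, HBG2, HBE1 and HBZ and the transcription factor GATA1. Of the markers of other blood cells, the T-cell gene CD3E was at 0 to 0.18 FPKM, CD3D at 3.51 to 4.96, the B-cell gene CD79A at 0.07 to 0.23, and the monocyte gene LYZ at 106.96 to 118.74. CD2, MS4A1 and CD14 were not analysed here. The unnumbered sh-luc library stood apart from the other 5, at -19.8 on the first principal component of all genes (59.3% of the variance) against -3.75 to 13.0. In that library the mean log2(FPKM + 1) of 12 integrated stress genes was 5.50, against 6.36 to 6.80 in the others. For many genes, but not for all that moved, the value without it is also given below. As the labels do not say whether libraries came from separate cultures and the methods speak of independent groups of cells without more detail, p-values measure the spread between these libraries. In bulk RNA, fewer cells that express a gene and less RNA per cell cannot be told apart.

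FCHSD2, an F-BAR and SH3 protein that promotes actin assembly at endocytic sites, lies closest to lncRNA-IUR1 and is transcribed from the same strand. Its level was 4.75 (unnumbered), 5.30 (r1) and 4.78 (r2) FPKM in the sh-luc libraries and 5.38, 4.63 and 5.04 FPKM in the sh-IUR1 libraries. The groups overlapped, and both the highest and the lowest of the 6 values were sh-IUR1 libraries. The means were 4.94 ± 0.309 and 5.02 ± 0.376 FPKM (SD, n = 3), and the log2 change was 0.017 with a 95% interval from -0.17 to 0.21 (adjusted p = 0.976 in limma). The difference was therefore smaller than the spread between libraries, and without the unnumbered sh-luc library it was -0.0061. The 3′ part of the ATG16L2 span overlaps FCHSD2 by 6996 bases on the opposite strand, and no source states that strand was used in counting, so reads there could belong to either gene.

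Beyond FCHSD2, the 4 next genes with values on that side were ATG16L2, STARD10, ARAP1 and CLPB. ATG16L2, a relative of the autophagy protein ATG16L1 with a gap of 312 kb, was at 1.21, 1.27 and 0.96 FPKM in sh-luc and at 1.22, 1.10 and 1.43 FPKM in sh-IUR1, which overlapped (log2 change 0.068, with a pseudocount of 0.1 FPKM 0.12). STARD10, a phospholipid transfer protein with a gap of 362 kb, was at 10.62, 10.52 and 10.70 FPKM in sh-luc and at 11.20, 11.67 and 10.74 FPKM in sh-IUR1. All 3 sh-IUR1 values of STARD10 were above all 3 sh-luc values, but the nearest values of the groups were 10.70 and 10.74 FPKM. The means of STARD10 were 10.6 ± 0.0902 and 11.2 ± 0.465 FPKM (SD, n = 3), a ratio of 1.06 and a log2 change of 0.071 (two-sided exact permutation p = 0.1, adjusted p = 0.930 in limma). An exact permutation test of 3 libraries against 3 cannot give a p under 0.1. ARAP1, which switches off small GTPases, was at 17.93, 21.32 and 20.74 FPKM in sh-luc and at 20.18, 21.08 and 21.46 in sh-IUR1. Its lowest value was the unnumbered sh-luc library, and the log2 change of 0.064 became -0.0084 without it. CLPB, a mitochondrial chaperone that dissolves protein aggregates, was at 10.75, 10.97 and 11.29 FPKM in sh-luc and at 10.23, 9.74 and 11.13 in sh-IUR1, which overlapped (log2 change -0.080).

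On the P2RY2 side, the 5 nearest genes with values were ARHGEF17, RELT, FAM168A, PLEKHB1 and RAB6A, with gaps of 125 to 493 kb. ARHGEF17, which activates small GTPases, was at 0.85, 1.05 and 1.02 FPKM in sh-luc and at 0.97, 1.23 and 1.18 FPKM in sh-IUR1. The groups overlapped at this low level, with a log2 change of 0.11 on the scale with 1 FPKM added and 0.19 with 0.1 FPKM added, and it was 0.062 without the unnumbered sh-luc library. RELT, a receptor of the tumor necrosis factor receptor superfamily, was at 7.68, 6.92 and 7.76 FPKM in sh-luc and at 6.80, 6.40 and 7.03 FPKM in sh-IUR1. RELT was lower on average in sh-IUR1, at 6.74 ± 0.319 against 7.45 ± 0.464 FPKM (SD, n = 3), but 1 sh-IUR1 library was above 1 sh-luc library. Its log2 change was -0.13 (limma, unadjusted p = 0.149, adjusted p = 0.930). FAM168A was at 5.97, 7.17 and 7.04 FPKM in sh-luc and at 6.58, 6.81 and 6.56 in sh-IUR1, so that the sh-IUR1 values lay inside the range of the controls (log2 change -0.011, and -0.083 without the unnumbered sh-luc library). PLEKHB1, a protein with a pleckstrin homology domain, was at 1.94, 2.15 and 1.85 FPKM in sh-luc and at 2.11, 1.97 and 1.89 in sh-IUR1, also inside the range of the controls (log2 change 0.0054, and -0.0037 without that library). RAB6A, a small GTPase of Golgi traffic, was at 26.75, 27.91 and 26.97 FPKM in sh-luc and at 29.49, 29.46 and 26.87 in sh-IUR1. A pair of its sh-IUR1 libraries lay above every control and r2 lay within them (log2 change 0.069). Of these 10 genes, the 5 nearest with values on each side, STARD10 was the only 1 whose groups did not overlap. Over all genes tested, 4.04% were wholly higher and 3.03% wholly lower in sh-IUR1, so 1 of 10 is not a result about these genes.

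**Figure D1:**
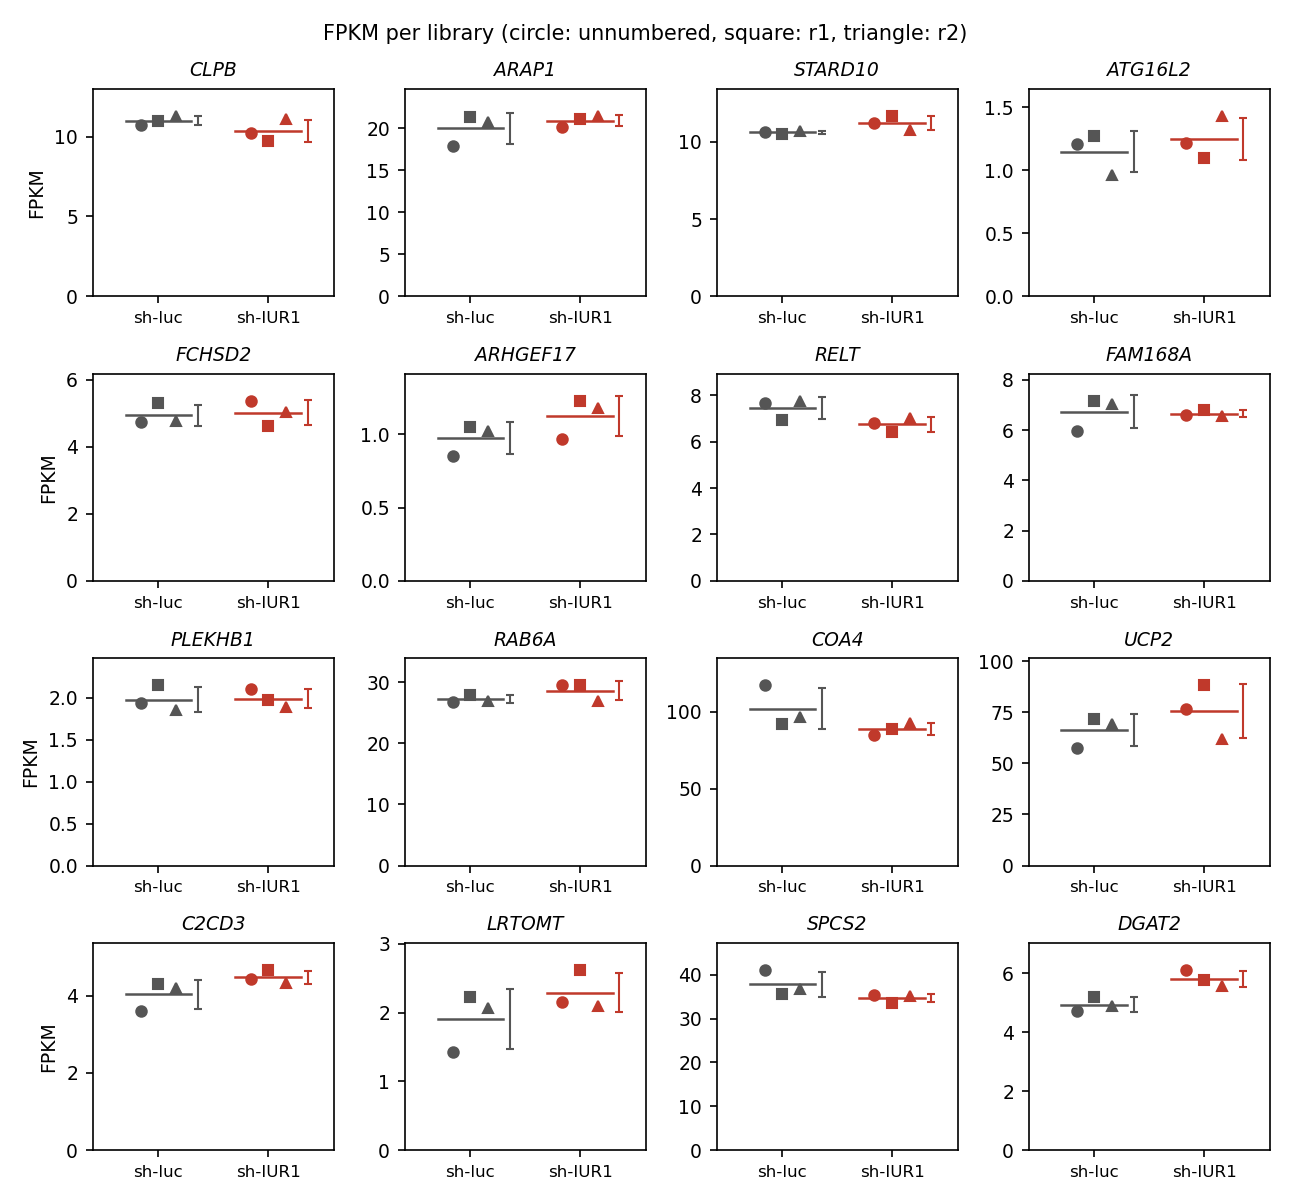
FPKM (linear axes from 0) of 16 neighbours in each library, with sh-luc in grey and sh-IUR1 in red, circles for the unnumbered library, squares for r1 and triangles for r2; horizontal lines are means and error bars are SD over 3 libraries. The groups overlap in 12 of the 16 panels, which include all 4 of the 38 neighbours without overlap, named for that reason. Over all genes tested, 4.04% were wholly higher and 3.03% wholly lower in sh-IUR1. In DGAT2 the groups are apart, at 4.73 to 5.21 FPKM in sh-luc and 5.57 to 6.12 FPKM in sh-IUR1.

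Over the whole stretch, 0 of the 38 neighbours had an adjusted p under 0.05, as had 0 of the 12276 genes tested (0% called, smallest adjusted p 0.930 in limma). At an unadjusted p under 0.05 there was 1 neighbour, DGAT2, and it was higher in sh-IUR1, against 1.65% of all genes tested that were higher and 0.994% that were lower at that threshold. The 3 neighbours with sh-IUR1 values wholly above the controls were STARD10, C2CD3 and DGAT2, where 4.04% of all genes did so. SPCS2 was the 1 neighbour with sh-IUR1 values wholly below the controls, where 3.03% of all genes did so. Direction was mixed: 22 of the 38 had a log2 change above 0 and 16 below, or 57.9% above, beside 58.0% of all genes tested. The median log2 change was 0.023 for the 38 neighbours, 0.019 for all genes and 0.018 for the other 674 genes of chromosome 11. The changes ran from -0.19 for COA4 to 0.20 for DGAT2, and their median size without regard to sign was 0.067, beside 0.062 for all genes. Among 24 chromosomes with genes tested, chromosome 11 with its 719 genes ranked 11th by median log2 change, at 0.018.

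**Figure D2:**
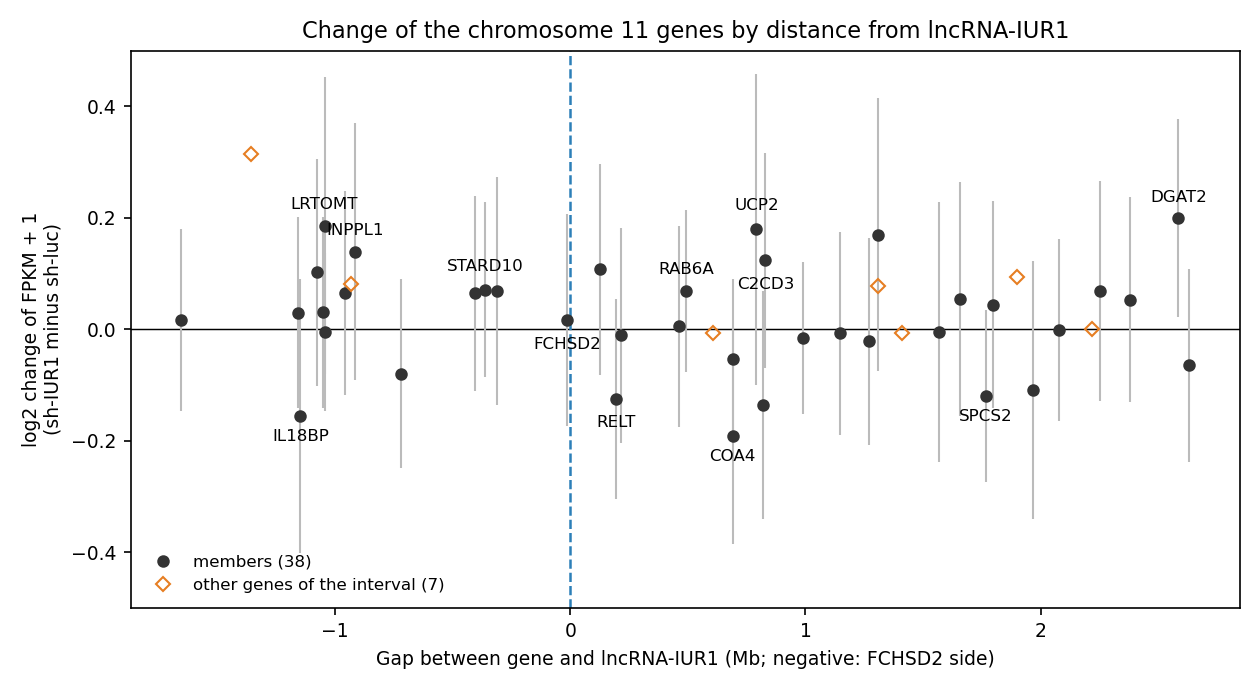
Log2 change of FPKM + 1 (sh-IUR1 minus sh-luc, vertical axis) against the gap between the gene and lncRNA-IUR1 in Mb (horizontal axis, negative on the FCHSD2 side), with 95% intervals from limma. Filled points are the 38 neighbours and open diamonds the 7 other genes of the interval; all 38 lie between -0.19 and 0.20, and every interval but that of DGAT2 crosses 0.

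The intervals show what size of change these libraries leave room for. All 38 neighbours had a 95% interval inside a log2 change of 0.5 in either direction, a fold of 1.41 on the FPKM + 1 scale, as had 95.6% of all genes tested. Within 0.3 there were 26 of the 38 (69.7% of all genes), and within 0.2 there were 7 (22.4% of all genes). The interval extended from its centre by a median of 0.18, least far for PPME1, at 0.14, and farthest for UCP2, at 0.28. For genes at low FPKM such as UCP3 and KCNE3 these limits hold only for the scale with 1 FPKM added. The SD within groups had a median of 0.090 on the log2 scale for the neighbours and 0.097 for all genes, and the change was larger than this SD in 13 of the 38 (34.2%, beside 26.7% of all genes).

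The changes were then set against distance from lncRNA-IUR1. Across the 38 genes, Pearson's r between the log2 change and the gap was 0.034 and Spearman's correlation was -0.011, and with the size of the change they were 0.017 and -0.068. These points share the same 6 libraries and are not independent, so they are a description. The 9 genes with a gap of up to 500 kb had a median log2 change of 0.064, with 7 above 0. The 9 genes between 500 kb and 1 Mb had a median of -0.015 with 4 above 0, the 15 genes between 1 and 2 Mb a median of 0.017 with 8 above 0, and the 5 genes beyond 2 Mb a median of 0.053 with 3 above 0. These medians moved with single libraries. Without the unnumbered sh-luc library the 4 medians were -0.0037, -0.030, -0.023 and 0.0077, and 4 of the 9 nearest genes were above 0. The median up to 500 kb was 0.020 without sh-luc r2 and 0.030 without sh-IUR1 r2. Between 1 and 2 Mb it was -0.0050 without sh-IUR1 r2, and beyond 2 Mb it was -0.013 without sh-IUR1 r1 and 0.10 without sh-IUR1 r2.

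**Figure D3:**
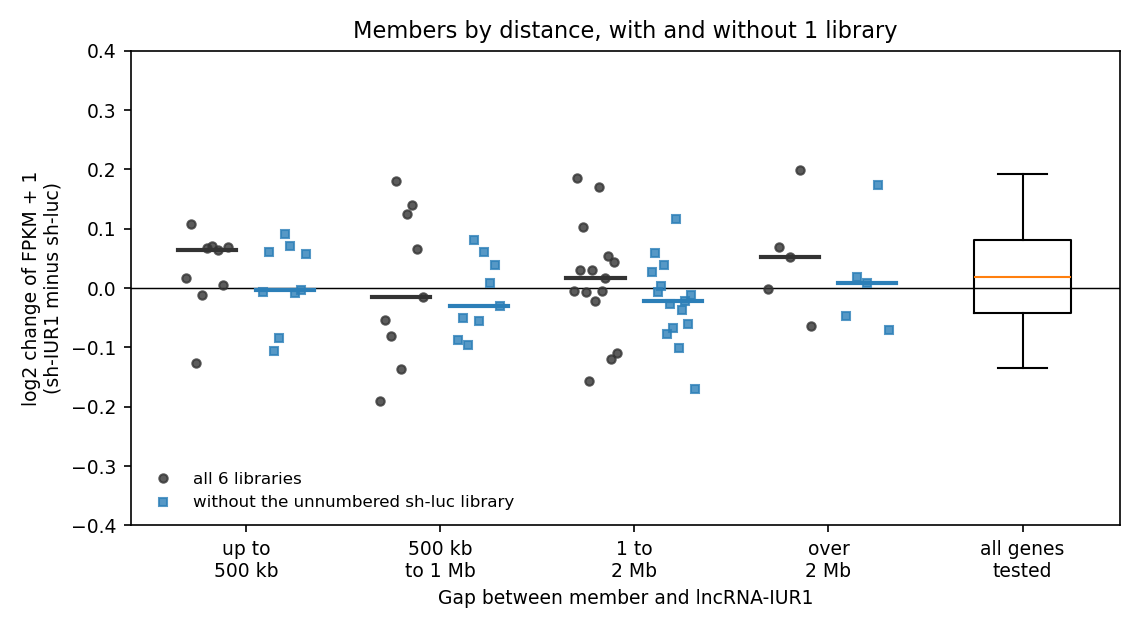
Log2 change of FPKM + 1 for the 38 neighbours in 4 ranges of the gap to lncRNA-IUR1, with all 6 libraries (black circles) and without the unnumbered sh-luc library (blue squares); short lines are medians, and the box at the right gives the 5th, 25th, 50th, 75th and 95th percentiles of all genes tested. The median of the nearest range is 0.064 with all libraries and -0.0037 without that library.

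The sides differed in the same dependent way. On the FCHSD2 side 11 of 14 genes were above 0 with a median log2 change of 0.047, and on the P2RY2 side 11 of 24 with a median of -0.0026. Without the unnumbered sh-luc library, an alternative chosen after seeing the data, the counts were 7 of 14 (median -0.0014) and 9 of 24 (median -0.026), and over both sides 16 of 38 were above 0 with a median of -0.0080, beside 0.0047 for all genes. That library held the lowest value of 21 of the 38 neighbours, or 55.3%, beside 38.4% of all genes. The sh-IUR1 library r1 held the highest value of 13 of them, or 34.2%, beside 25.9% of all genes. Relative to each gene's mean over the 6 libraries, the median neighbour was at -0.088 on the log2 scale in the unnumbered sh-luc library and between -0.0050 and 0.030 in the other 5. The median over all genes was also lowest in that library, at -0.029, and between -0.0064 and 0.015 in the other 5. The part of the stress genes in these values was not tested.

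**Figure D4:**
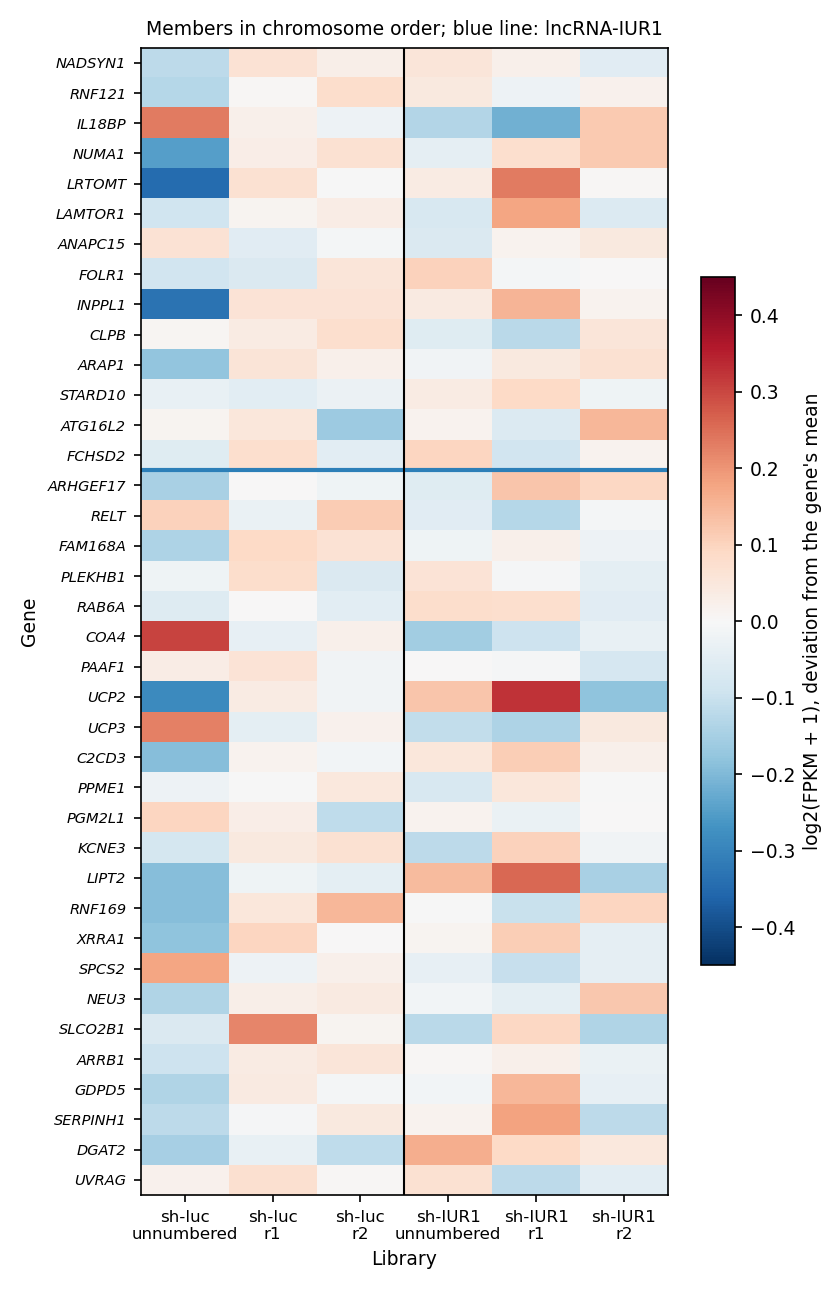
Deviation of log2(FPKM + 1) from each gene's mean over the 6 libraries (colour, red above and blue below), with the 38 neighbours in chromosome order from top to bottom and the libraries as columns; the horizontal line marks the place of lncRNA-IUR1 and the vertical line divides sh-luc from sh-IUR1. The first column, the unnumbered sh-luc library, is the lowest for 21 of the 38 genes, on both sides of the lncRNA.

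DGAT2, which catalyses the last step of triglyceride synthesis, had the smallest p of the neighbours and lies among the farthest of them, with a gap of 2586 kb (chr11:75768778-75801534). Its level was 4.73 (unnumbered), 5.21 (r1) and 4.88 (r2) FPKM in sh-luc and 6.12, 5.77 and 5.57 FPKM in sh-IUR1. All 3 sh-IUR1 values lay above all 3 controls, the nearest being 5.57 and 5.21 FPKM. The means were 4.94 ± 0.246 and 5.82 ± 0.278 FPKM (SD, n = 3), a ratio of 1.18, and the log2 change was 0.20 (standard error 0.079, two-sided exact permutation p = 0.1, unadjusted p = 0.0314 and adjusted p = 0.930 in limma). Over the 6 fits that each leave out 1 library, the log2 change of DGAT2 was between 0.17 and 0.23 and its adjusted p between 0.667 and 0.9997. In 4 of those fits, without the unnumbered sh-luc library, sh-luc r2, the unnumbered sh-IUR1 library or sh-IUR1 r1, 0 neighbours had an unadjusted p under 0.05. In the same order, 219, 297, 156 and 231 of all genes tested were under that threshold. With so few of all genes, the count of 0 is not a result about the neighbours.

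The other genes of lipids, sugars, vitamins and transport were STARD10, FOLR1 (a folate receptor), NADSYN1 (the last step of NAD synthesis), NEU3 (a sialidase of gangliosides), SLCO2B1 (an organic anion transporter) and PGM2L1 (glucose 1,6-bisphosphate synthesis). Of these 7 genes with DGAT2, 0 passed the adjusted test, 5 were above 0 and 2 below, and the median log2 change was 0.044. FOLR1 was at 4.67 to 5.25 FPKM in sh-luc and 4.98 to 5.47 in sh-IUR1, and NEU3 at 9.67 to 11.06 and 10.37 to 11.74 FPKM. NADSYN1, the most strongly expressed of the group at a mean of 20.1 FPKM, had a log2 change of 0.017, and -0.037 without the unnumbered sh-luc library. SLCO2B1 had the lowest change of the group, -0.11 (-0.17 without that library), at 2.60 to 3.39 FPKM in sh-luc and 2.43 to 3.02 in sh-IUR1.

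COA4, an assembly factor of cytochrome c oxidase, was the most strongly expressed neighbour and had the lowest log2 change. It was at 117.29 (unnumbered), 92.39 (r1) and 96.44 (r2) FPKM in sh-luc and at 84.96, 88.81 and 92.68 FPKM in sh-IUR1. The sh-IUR1 value in r2 was above the sh-luc value in r1, so the groups overlapped, and the unnumbered sh-luc library was far above the other 5. The means were 102 ± 13.4 and 88.8 ± 3.86 FPKM (SD, n = 3), with a log2 change of -0.19 (unadjusted p = 0.0534, adjusted p = 0.930 in limma), and without the unnumbered sh-luc library the change was -0.088. UCP2, a carrier of the inner mitochondrial membrane, was at 57.33, 71.94 and 69.32 FPKM in sh-luc and at 76.61, 88.20 and 61.80 FPKM in sh-IUR1. The groups overlapped, and the log2 change of 0.18 became 0.081 without the unnumbered sh-luc library. UCP3, the paralogue next to it, was at 0.11 to 0.34 FPKM in sh-luc and 0.04 to 0.18 in sh-IUR1, with a log2 change of -0.14 on the scale with 1 FPKM added and -0.65 with 0.1 FPKM added, and -0.056 on the first scale without the unnumbered sh-luc library. The carriers are alike in sequence, and reads shared by them could move values of UCP3 far more than values of UCP2. This was not tested. LIPT2, an enzyme of lipoate synthesis in mitochondria, was at 0.58 to 0.78 FPKM in sh-luc and 0.63 to 1.16 in sh-IUR1 (log2 change 0.17, and 0.33 with 0.1 FPKM added). Of the 5 genes of mitochondria and lipoate, with CLPB, 0 passed the adjusted test, 2 were above 0 and 3 below, and the median log2 change was -0.080.

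Genes of GTPase and phosphoinositide signalling showed 1 direction with all libraries and none without 1 of them. All 6 with values (FCHSD2, ARAP1, ARHGEF17, RAB6A, PLEKHB1 and INPPL1) were above 0 with a median log2 change of 0.067, and 0 passed the adjusted test. Without the unnumbered sh-luc library 3 of the 6 were above 0, with a median of 0.0024. INPPL1, the inositol phosphatase SHIP2, shows this most plainly. It was at 33.82, 44.66 and 44.73 FPKM in sh-luc and at 44.04, 47.75 and 43.23 FPKM in sh-IUR1. Only the unnumbered sh-luc library lay below the rest, and the log2 change of 0.14 became 0.0085 without it.

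A list set up for receptors and adaptors was on the other side of 0. The place of IL18BP and KCNE3 in it is doubtful. Of the 6 named, P2RY2 and P2RY6 were not analysed here, and the other 4 (RELT, IL18BP, KCNE3 and ARRB1) had log2 changes between -0.16 and -0.00082, with a median of -0.074. IL18BP, a secreted inhibitor of interleukin 18, had the lowest of these, at 3.58 to 4.47 FPKM in sh-luc and 3.0 to 4.04 in sh-IUR1, which overlapped (log2 change -0.16, and -0.078 without the unnumbered sh-luc library). ARRB1, or beta-arrestin 1, had the change closest to 0 among all 38 neighbours, at 12.4 ± 0.741 FPKM in sh-luc and 12.4 ± 0.249 FPKM in sh-IUR1 (SD, n = 3). KCNE3, a subunit of potassium channels, was at 0.09 to 0.27 FPKM in the 6 libraries. None of the 4 passed the adjusted test. Without the unnumbered sh-luc library the 4 were below 0 with a median of -0.072, but KCNE3 was above 0 without sh-luc r2 (0.0067) or the unnumbered sh-IUR1 library (0.032), and ARRB1 was above 0 without sh-luc r1 (0.018), sh-luc r2 (0.027) or sh-IUR1 r2 (0.014).

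A list set up for autophagy and lysosome held LAMTOR1, ATG16L2, UVRAG and GDPD5, a phosphodiesterase whose place in it is doubtful. In that list 3 of 4 were above 0 with a median log2 change of 0.049, and 2 of 4 with a median of 0.0055 without the unnumbered sh-luc library. GDPD5 itself was at 0.069, and at 0.019 without that library. LAMTOR1, which anchors mTORC1 signalling to the lysosome and was the second most strongly expressed neighbour, was at 81.78, 87.87 and 89.18 FPKM in sh-luc and at 82.93, 98.68 and 83.43 FPKM in sh-IUR1. The groups overlapped, and the 2 highest of these values were 1 library of each group. In ubiquitin, proteasome and phosphatase genes (the ligases RNF121 and RNF169, the anaphase-promoting complex subunit ANAPC15, the proteasome assembly factor PAAF1 and the PP2A demethylase PPME1), 1 of 5 was above 0 and the median was -0.0048, with values from -0.054 to 0.030, and without that library the median was -0.030. In the spindle and cilium genes, NUMA1, which organises spindle poles, and C2CD3, a centriole protein needed for cilia, both were above 0. C2CD3 was at 3.60, 4.31 and 4.2 FPKM in sh-luc and at 4.44, 4.67 and 4.33 FPKM in sh-IUR1. The sh-IUR1 values of C2CD3 lay above all controls, by 0.02 FPKM at the nearest pair of values. Its log2 change was 0.12 (two-sided exact permutation p = 0.1, adjusted p = 0.930 in limma), and 0.060 without the unnumbered sh-luc library. NUMA1 was at 22.50 to 28.27 FPKM in sh-luc and 26.15 to 29.32 in sh-IUR1, with a log2 change of 0.10 that became 0.0033 without that library.

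SPCS2, a subunit of the signal peptidase that cuts signal peptides from secreted proteins, was at 41.11, 35.63 and 36.85 FPKM in sh-luc and at 35.28, 33.62 and 35.20 FPKM in sh-IUR1. Every sh-IUR1 value was below every sh-luc value, with 35.28 and 35.63 FPKM as the nearest. The means were 37.9 ± 2.88 and 34.7 ± 0.936 FPKM (SD, n = 3), and the log2 change was -0.12 (two-sided exact permutation p = 0.1, unadjusted p = 0.114 and adjusted p = 0.930 in limma). Without the unnumbered sh-luc library the log2 change was -0.061. The collagen chaperone SERPINH1, also of the secretory pathway, had a log2 change of 0.053 (0.0077 without that library) at 47.04 to 52.70 FPKM in sh-luc and 47.05 to 58.09 in sh-IUR1. In the remaining group, LRTOMT and XRRA1 were above 0 and FAM168A below. LRTOMT, a locus that encodes a leucine-rich repeat protein and a methyltransferase needed for hearing, was at 1.42, 2.23 and 2.07 FPKM in sh-luc and at 2.16, 2.62 and 2.09 FPKM in sh-IUR1. The groups overlapped and the unnumbered sh-luc library was the lowest, and the log2 change of 0.19 became 0.060 without it.

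**Figure D5:**
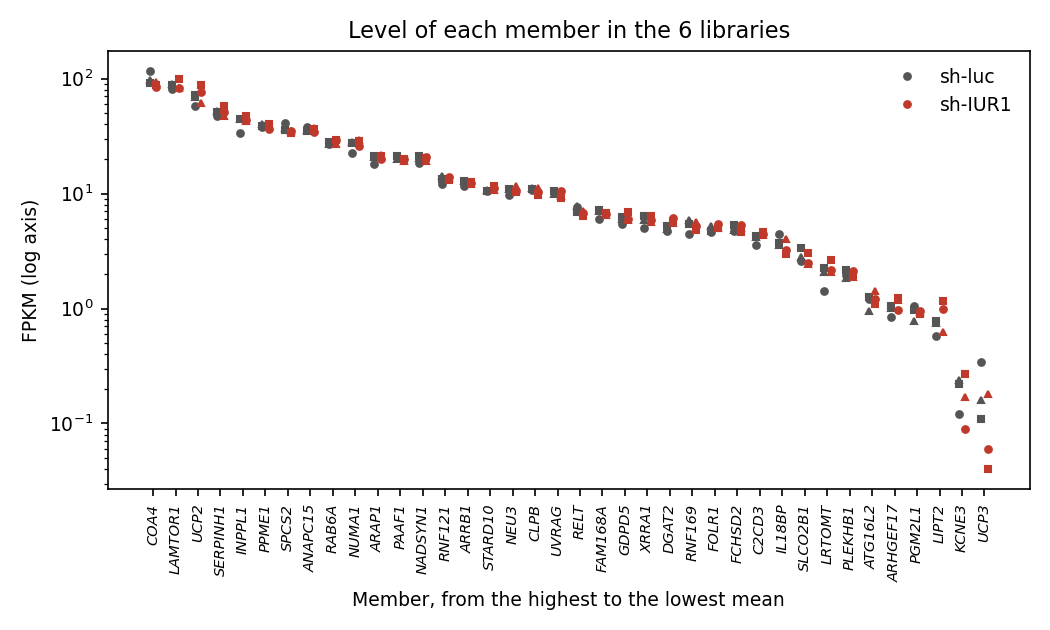
FPKM (log axis) of the 38 neighbours in each library, ordered from the highest to the lowest mean, with sh-luc in grey and sh-IUR1 in red and 3 points per group. The genes run from COA4, at a mean of 95.4 FPKM, to UCP3, at 0.148 FPKM, and the groups overlap at high and low levels, with STARD10, C2CD3, DGAT2 and SPCS2 as the exceptions.

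Some of the neighbours share a start region or sequence with each other. Start sites lie within 1000 bases of each other, on opposite strands, for 4 pairs of the 38. In the pair NUMA1 and LRTOMT the log2 changes were 0.10 and 0.19, and in COA4 and PAAF1 they were -0.19 and -0.054. In C2CD3 and PPME1 they were 0.12 and -0.015, and in XRRA1 and SPCS2 0.054 and -0.12, so that the sign was shared in 2 of the 4 pairs. XRRA1 and SPCS2 start 175 bases apart, and the SPCS2 window printed above overlaps that of XRRA1. Overlapping spans make values uncertain where strand was not stated to be used, as for LAMTOR1 and ANAPC15, which overlap LRTOMT, for IL18BP with NUMA1, and for RNF169 with XRRA1. LAMTOR1 lies whole inside the span of LRTOMT, with an overlap of 6006 bases.

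Between NADSYN1 and UVRAG, 9 further genes had values and 7 of them passed the filter on low FPKM. Of these 7, 5 were above 0 and 2 below, with a median log2 change of 0.078, and 0 had an unadjusted p under 0.05 in limma. At that threshold 1.65% of all genes tested were higher and 0.994% lower. The nearest was MRPL48, a protein of the mitochondrial ribosome with a gap of 605 kb, at 42.36 to 48.69 FPKM in sh-luc and 43.68 to 45.24 in sh-IUR1 (log2 change -0.0061). The next were DNAJB13, which was under the filter, and FOLR2, which was at 0.04 to 0.29 FPKM. OR2AT4, an olfactory receptor gene named here after its values were seen, was the only 1 of the 7 without overlap, at 1.11 to 1.31 FPKM in sh-luc and 1.36 to 1.38 in sh-IUR1. Since 4.04% of all genes tested were wholly higher and 3.03% wholly lower, 1 of 7 is not a result about these genes. FAM86C1P, also named after its values were seen, had the largest log2 change of the 7, at 0.32 (gap 1356 kb). The highest among the 38 neighbours was 0.20. FAM86C1P was at 6.8 to 10.71 FPKM in sh-luc and 8.9 to 14.57 in sh-IUR1, which overlapped, and the unnumbered sh-luc library was the lowest. Its interval in limma, from -0.083 to 0.71, crossed 0 and reached beyond the limit of 0.5 that held for all 38 neighbours.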

How the data were processed

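The data are 6 RNA-seq libraries from K562 cells, 3 sh-luc and 3 sh-IUR1. According to the methods, reads were trimmed and masked, mapped to hg38 and turned into RPKM with SAMtools 0.1.19. One marker gene is not reported here. The aligner, annotation and use of strand are not given in the sources used here. The authors deposited FPKM with 2 decimals for 12486 genes by Entrez identifier, each with an SD of at least 0.05 FPKM over the libraries, a filter that leaves out nearly constant genes. The authors also deposited a score, the z-score of each gene's FPKM over the libraries, a cluster number, and how strongly the gene belongs to its cluster as a fraction. None of these entered a test.

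Positions, symbols (12363 genes) and promoters were taken from RefSeq GRCh38.p14. Distance is the gap between gene spans. The 12276 genes whose mean reached 0.1 FPKM were fitted as log2(FPKM + 1) with limma 3.58.1 in R 4.3.3 (lmFit, eBayes with a trend) and Benjamini-Hochberg adjustment. The step was tested on simulated data. Whole fragments could not be recovered: at the best of 220 depths tried, 41.2% of 277 low values were whole within 0.15 fragments, with 30% by that tolerance alone. Depth is therefore unknown and no counting interval is given. The replicate number was not used in the main fit, and a replicate block was an alternative. Whether libraries of the same number are paired is not known, and their deviations could not decide it. The genes and lists were chosen with earlier results of these data known. Values in every library are given for the 5 nearest genes with values on each side, the 5 with the smallest p, those without overlap between groups and the 3 with the highest mean, and INPPL1 was added after its values were seen. Alternatives were a pseudocount of 0.1, no filter, a mean of at least 1 FPKM, median-ratio scaling, eBayes without a trend, a replicate block, each library left out, and distance by start sites. Tables were handled in Python 3.11.15 (pandas 2.3.3 with numpy 2.4.6 and scipy 1.17.1), and plots were drawn in matplotlib 3.10.9.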

Additional observations from a re-analysis of the deposited data

How the results depend on the processing

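No neighbour had an adjusted p under 0.05 in limma under any alternative run, and the adjusted p of a neighbour ranged from 0.667 to 0.9997. Of the 452 values of single neighbours under alternatives, 418 kept their direction. PLEKHB1 was at -0.0053 with median-ratio scaling, which moved the median of all genes from 0.019 to 0.0056. The other reversals came with 1 library left out, where 16 neighbours had log2 changes on both sides of 0, over these ranges: ANAPC15 -0.031 to 0.027, ARAP1 -0.0084 to 0.11, ARRB1 -0.047 to 0.027, FAM168A -0.083 to 0.031, FCHSD2 -0.026 to 0.064, KCNE3 -0.078 to 0.032, LAMTOR1 -0.051 to 0.073, NADSYN1 -0.037 to 0.054, NEU3 -0.012 to 0.077, PGM2L1 -0.067 to 0.038, PLEKHB1 -0.026 to 0.046, PPME1 -0.044 to 0.017, RNF121 -0.027 to 0.077, RNF169 -0.10 to 0.069, SERPINH1 -0.024 to 0.12, XRRA1 -0.023 to 0.12. The median of the genes from 500 kb to 1 Mb, -0.015, was 0.025 with a mean of at least 1 FPKM, which drops UCP3, and 0.025 with distance by start sites, which moves genes between ranges. With 1 library left out it ran from -0.040 to 0.017, that of the genes up to 500 kb from -0.0037 to 0.065, that from 1 to 2 Mb from -0.023 to 0.054, and that beyond 2 Mb from -0.013 to 0.10. The count of neighbours at an unadjusted p under 0.05, which was 1, ran from 0 (4 of the 6 libraries left out) to 4, with 4 without sh-IUR1 r2 and 2 without sh-luc r1. The count without overlap, which was 4, ran from 5 to 12 (a smaller group overlaps less by construction), with 12 without sh-IUR1 r2. Without the unnumbered sh-luc library, 3 of the 38 neighbours were wholly higher and 3 wholly lower. Beside them, 791 of the 12277 genes tested in that fit were wholly higher and 758 wholly lower. For the other libraries left out, the share over all genes was not computed, so those counts are not a result about the neighbours. For all genes, 325 at an unadjusted p under 0.05 became 156 to 854, with 156 without the unnumbered sh-IUR1 library, 712 without sh-IUR1 r2 and 854 without sh-luc r1. Deviations from the group mean of libraries of the same number correlated at 0.044 (unnumbered), 0.385 (r1) and -0.340 (r2). These correlations depend on each other, so they neither show nor exclude a pairing by number. With the replicate block, 533 genes, 1 of them a neighbour, had an unadjusted p under 0.05, and 0 were called at the adjusted threshold. FPKM without counts leave the counting error of low genes such as UCP3 and KCNE3 unknown.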

Other observations

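The authors assigned each gene to 1 of 9 clusters by its pattern over the 6 libraries, and the neighbours of lncRNA-IUR1 were spread over all 9. Cluster 5 held 8 of the 38 (RNF121, NUMA1, FOLR1, INPPL1, ARAP1, ARHGEF17, FAM168A and ARRB1), or 21.1%, beside 11.5% of all listed genes. The mean z-score of the genes of that cluster was -1.71 in the unnumbered sh-luc library and between 0.058 and 0.62 in the other 5. Cluster 3, whose mean z-score was 1.65 in the unnumbered sh-luc library, held 4 (IL18BP, COA4, PAAF1 and SPCS2), or 10.5%, beside 11.7% of all listed genes. Cluster 2 held 1, PGM2L1. Since the clusters were made from these libraries, they are a description of them.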
